A study of Homo sapiens with 8 samples.

Results

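The receptors and coregulators of retinoic acid signalling were followed in ESI017, an established human embryonic stem cell line, as it was driven toward posterior neural fate. The 9 genes were chosen by name from 35940 gene symbols: the retinoic acid receptors RARA, RARB and RARG, the retinoid X receptors RXRA, RXRB and RXRG, the coregulators NRIP1 and NCOR1, and the retinol transporter STRA6. All 9 were found, and all 9 passed the filter on low values, which asked for at least 1 TPM in at least 2 libraries. TPM is the unit of the table: the fraction of transcript molecules in a library estimated to come from a gene, after correction for transcript length. Wild-type cells were placed in N2B27, a serum-free neural medium, with 10 μM SB and 100 nM LDN, and 300 ng/mL human recombinant WNT3A was given at 34 h. Poly(A) RNA was sequenced at 34, 42, 50 and 72 h, which is 0, 8, 16 and 38 h after WNT3A, with 2 libraries per time point. All libraries come from 1 cell line and all shared SB and LDN. No series without WNT3A was analysed here, so time and WNT3A cannot be told apart in any comparison with 34 h.

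Retinoic acid is made inside cells from retinol, and STRA6 is a membrane receptor that takes up retinol from its carrier in plasma. RAR and RXR proteins bind DNA as pairs at direct repeats of a short half-site. Without ligand the pair holds corepressors such as NCOR1, and retinoic acid replaces them with coactivators. NRIP1 (RIP140) binds receptors that carry ligand and represses them. In the embryo retinoic acid patterns the hindbrain and spinal cord, and RARB and CYP26A1, the enzyme that breaks retinoic acid down, are classic direct targets of the receptors.

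The promoter sequences below carry the motifs that were searched for, and they are shown because RARB rose between 50 h and 72 h and lies next to a repeat that RAR and RXR pairs are known to bind. RefSeq windows (GRCh38.p14) from 250 bases before to 50 bases after a transcription start were read on both strands, and the 9 genes had 23 such windows. The motifs were direct repeats of a 6-base half-site (A or G, then G, then G or T, then TCA) with spacers of 1, 2 or 5 bases, named DR1, DR2 and DR5, and CTTTGA, the core of the TCF/LEF site through which WNT acts. DR5 was found in 1 of the 23 windows, 53 to 37 bases before a RARB start (chr3:25428113-25428262, plus strand, inside the span of the gene, which has earlier starts), and in 0.0887% of all 34943 windows. Of the 71 other genes of the pathway named further on, 53 had a window and could be searched, and among these CYP26A1 alone had a DR5, on the strand opposite to the gene, 90 to 74 bases before a start (chr10:93073797-93073825, plus strand). CTTTGA was found in 3 of the 23 windows, against 12.9% of all windows: at other starts of RARB (chr3:25340742-25340801 on the plus strand, and a window not printed) and at NRIP1 (chr21:15065001-15065060, minus strand). No window of the 9 genes held DR1 or DR2. The stretches read 5′ to 3′ along the gene, with the matched motif, or its reverse complement, in capitals.
RARB DR5: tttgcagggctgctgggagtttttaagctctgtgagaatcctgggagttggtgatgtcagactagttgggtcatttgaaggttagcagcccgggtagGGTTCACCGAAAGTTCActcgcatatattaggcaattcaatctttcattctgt
CYP26A1 DR5: taaagaTGAACTTTGGGTGAACTaattgt
RARB CTTTGA: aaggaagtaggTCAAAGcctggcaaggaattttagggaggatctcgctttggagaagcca
NRIP1 CTTTGA: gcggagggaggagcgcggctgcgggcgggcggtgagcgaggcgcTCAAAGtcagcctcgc
A match describes these letters only and was not tested as a binding site. Which start of RARB was in use was not tested, nor was the part of the repeat in the rise of RARB.

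Most pluripotency markers and some neural progenitor markers were at 1 TPM or more at every time, and SOX2 is on both lists. The summed level of 6 pluripotency markers was 3415 to 3440 TPM (34 h) and 1863 to 1950 TPM (72 h), and that of 6 neural progenitor markers went from 381.3 and 399.5 TPM to 690.6 and 740.6 TPM in the libraries of 34 h and 72 h. POU5F1 was still at 354.5 and 387.6 TPM (72 h), while SOX1 had reached 56.5 and 45.2 TPM. TDGF1 went from 742.8 and 785.1 TPM (34 h) to 2.94 and 6.13 TPM (72 h). NANOG went from 2.46 and 1.59 TPM to 0.381 and 0.983 TPM, and DPPA4 from 372.4 and 393.5 TPM to 166.3 and 164.7 TPM. Most of the pluripotency sum at 72 h was LIN28A (1078 and 970.5 TPM) and SOX2 (347.7 and 333.1 TPM). Both of these were above their 34 h levels. At 34 h most of the neural sum was SOX2 (223.6 and 211.3 TPM) and NES (137.3 and 132.3 TPM), with SOX1 at 1.63 and 2.14 TPM and PAX6 at 0.0270 and 0.2815 TPM. The 6 mesoderm markers summed to at most 3.58 TPM in any library, with MSGN1 listed at 0 at every time. The 4 endoderm markers summed to 12.2 to 13.6 TPM (34 h) and to 0.598 to 0.866 TPM (72 h), with SOX17 at 0 throughout, and the 4 surface ectoderm markers never exceeded 1.24 TPM. Neural crest markers summed to 17.3 to 53.0 TPM, and neuron markers to between 183.5 and 318.3 TPM. These lists moved over the same hours as the genes described here, and their part in the changes was not tested. In bulk RNA, more cells with a transcript and more of it per cell cannot be told apart.

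No member passed the test at 42 h, 3 had risen at 50 h and 4 at 72 h against 34 h, and none fell in any comparison. Changes were tested with limma on log2(TPM + 1) over 14908 genes, with Benjamini-Hochberg adjusted p-values called under 0.05. At 42 h 0 of the 9 genes were called, against 2.58% of all genes (1.78% raised and 0.792% lowered), with 4 of the 9 at an unadjusted p under 0.05, as were 2069 of the 14908 genes tested. At 50 h RXRG, NRIP1 and STRA6 were called, all raised, where 6.26% of all genes were called, 3.52% raised and 2.74% lowered. At 72 h RARB, RXRA, RXRG and STRA6 were raised, where 24.0% of all genes were called, 12.7% raised and 11.3% lowered. The median log2 change of the 9 genes against 34 h was 0.45 (42 h), 0.38 (50 h) and 0.39 (72 h), where all tested genes had medians of 0.01, 0.04 and 0.06. RARB and RXRG were below 1 TPM in both 34 h libraries and could pass the filter only by being higher later, so their calls add no support to these counts. Among the 7 genes at 1 TPM or more in every library, 2 were called at 50 h and 2 at 72 h.

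**Figure D1:**
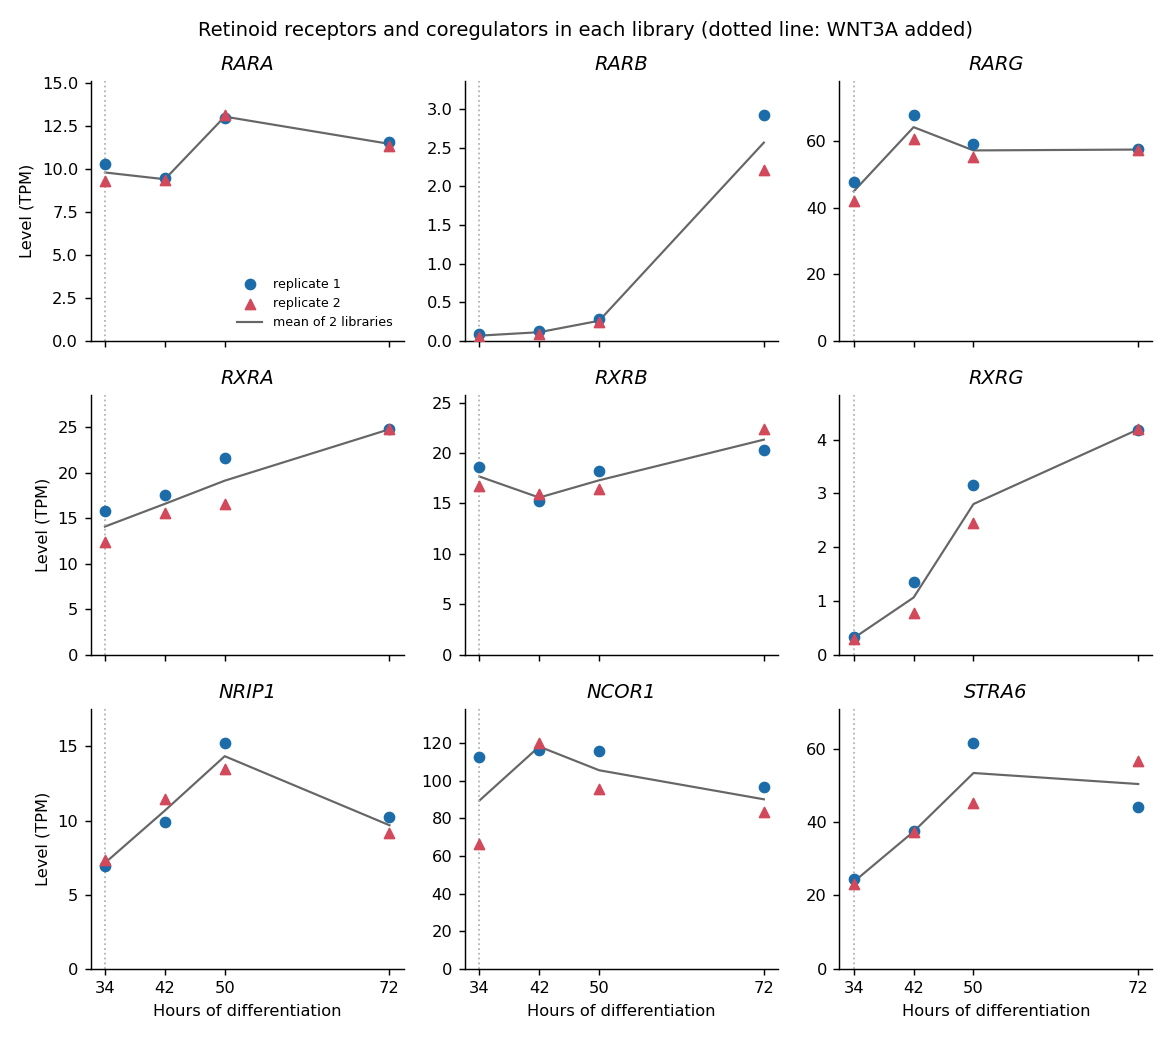
Level in TPM (y axis, linear from 0) of each of the 9 genes against hours of differentiation (x axis), with circles for replicate 1, triangles for replicate 2 and a line through the mean of the 2 libraries. RARB stays below 0.3 TPM until 50 h and reaches 2.93 and 2.21 TPM (72 h), RXRG climbs from 34 h on, NRIP1 is highest at 50 h, and the 34 h libraries of NCOR1 lie far apart.

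Between successive time points few members passed. From 42 h to 50 h limma called 0 of the 9 genes, where 0.0939% of all genes were called (0.0604% raised and 0.0335% lowered), and 4 of the 9 had an unadjusted p under 0.05 (RARA, RXRG, NRIP1 and STRA6), as had 1394 of the 14908 genes tested. From 50 h to 72 h RARB alone was called, raised, where 7.33% of all genes were called, 2.92% raised and 4.41% lowered. Over the whole course the limma F-test called RARB, RXRG, NRIP1 and STRA6, 4 of the 9, against 17.4% of all genes. RARB and RXRG passed the filter only through the times at which they were high, and of the other 7 genes NRIP1 and STRA6 were called. With the replicate number as a block the F-test called 6 of the 9, RARG and RXRA in addition, against 17.2% of all genes.

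Of the 3 retinoic acid receptors, RARG was by far the most abundant in every library and RARB the least. RARG (chromosome 12, 53210567 to 53232980, minus strand), a receptor of the early embryo and of skin, was at 47.8 and 41.9 TPM (34 h), 67.8 and 60.5 TPM (42 h), 59.1 and 55.2 TPM (50 h), and 57.5 and 57.3 TPM (72 h). Every later library was above both 34 h libraries, and the 42 h libraries were the 2 highest. At 34 h 77.5% of tested genes were lower than RARG, and at 42 h 84.0%. The change from 34 h to 42 h was 0.51 on the log2 scale (95% interval 0.25 to 0.76), with a limma adjusted p of 0.0590, which misses the threshold. With the replicate number as a block it passed (adjusted p = 0.0459). The change at 72 h was 0.35 (0.10 to 0.61) with a limma adjusted p of 0.0514, and 0.0397 with the block. The calls of RARG thus turn on the fit, while its change was positive in both replicates at each time against 34 h.

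RARA (chromosome 17, 40309192 to 40357643, plus strand), the receptor that most tissues express, was at 10.3 and 9.32 TPM (34 h) and at 9.48 and 9.34 TPM (42 h). It was at 13.0 and 13.2 TPM (50 h) and at 11.6 and 11.4 TPM (72 h). The 50 h libraries were the 2 highest and the 42 h libraries overlapped those of 34 h. The replicates of RARA lay close together, with a standard deviation of 0.0473 on the log2 scale, below that of all but 2.23% of tested genes. Its change from 42 h to 50 h was 0.43 (95% interval 0.13 to 0.73) with a limma adjusted p of 0.348, and no comparison passed. The interval at 72 h against 34 h ran from -0.09 to 0.51, which leaves room for a change of that size.

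RARB (chromosome 3, 25174332 to 25597932, plus strand), the receptor whose gene is itself switched on by retinoic acid in many cells, was at 0.0870 and 0.0437 TPM (34 h), 0.131 and 0.0896 TPM (42 h), 0.278 and 0.239 TPM (50 h), and 2.93 and 2.21 TPM (72 h). The libraries of successive times did not overlap, and both 72 h libraries were far above the other 6. The mean TPM at 72 h was 39.3 times that at 34 h, and 9.94 times that at 50 h, but the early levels are so low that 0.845% of tested genes were lower at 34 h. On the log2(TPM + 1) scale, which shrinks such folds, RARB rose by 1.74 ± 0.26 (SE) between 34 h and 72 h (adjusted p 0.00251 by limma) and by 1.496 ± 0.26 from 50 h to 72 h (limma adjusted p 0.01335). The rise from 50 h was 1.62 within replicate 1 and 1.37 within replicate 2. That call was lost without replicate 1 or replicate 2 at 50 h (limma adjusted p 0.0521 and 0.0645) and with a pseudocount of 0.1 (0.0693). Without either 72 h library the gene no longer met the filter. RARB shares 28 exon bases (0.757% of its exons) with TOP2B, a topoisomerase gene on the other strand, which was at 79.7 to 105 TPM. Whether reads were assigned by strand is not given in the sources used here.

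CYP26A1, whose window also held a DR5, also stood far higher at 72 h than at 50 h, with 44.9 and 43.3 TPM after 2.92 and 6.67 TPM (3.04 on the log2 scale, limma adjusted p 0.00113). Unlike RARB it was well above 1 TPM in the 34 h libraries, with 21.7 and 23.5 TPM, and it had fallen by 42 h (-1.86, limma adjusted p 0.0185). Of the 29 genes with a DR5 in a window, 9 passed the filter. Among the 8 apart from RARB, 1 was raised and 1 lowered at 72 h against 34 h by limma, where 24.0% of all genes were called, with a median log2 change of 0.20 against 0.06 over all tested genes. CYP26A1 was not called in that comparison (0.94, limma adjusted p 0.0604). The part of a DR5 in these changes was not tested.

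**Figure D2:**
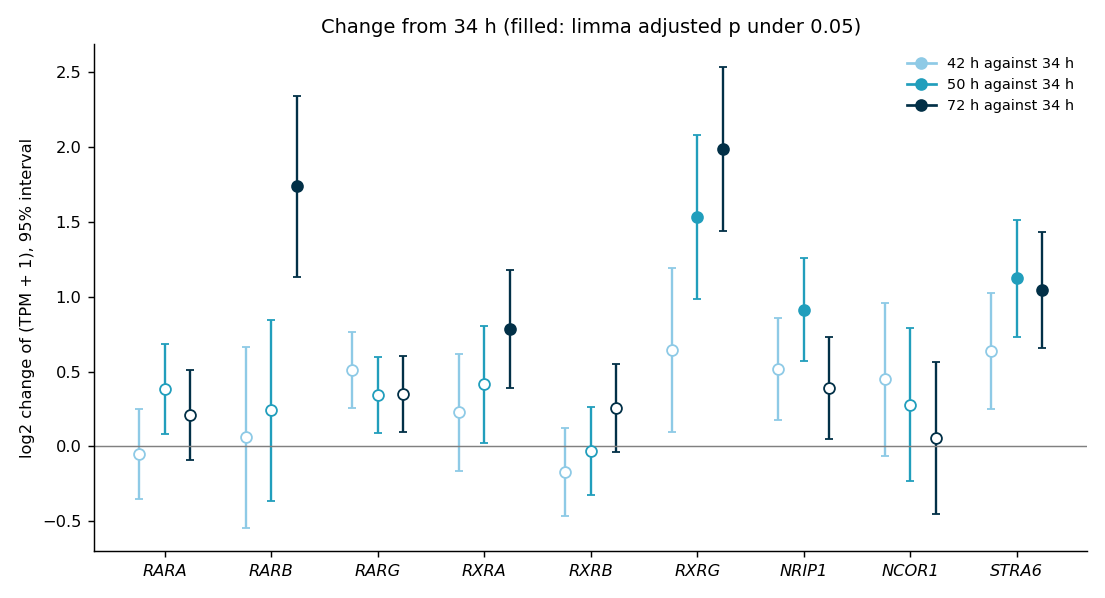
Change of each of the 9 genes against 34 h on the log2(TPM + 1) scale (y axis) at 42, 50 and 72 h (light to dark), with bars for the 95% interval of limma and filled circles for an adjusted p under 0.05. RXRG and STRA6 are filled at 50 h and 72 h, NRIP1 at 50 h only, and RARB and RXRA at 72 h only.

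RARG held most of the summed RAR level in every library, and the share of RARB was highest at 72 h. RARG held 82.2% and 81.7% of the summed RAR TPM at 34 h, 87.6% and 86.5% (42 h), 81.7% and 80.5% (50 h), and 79.9% and 80.85% (72 h). The 42 h libraries were thus the highest, and they were the lowest for RARA, at 12.2% and 13.4%. RARB held 4.07% and 3.11% (72 h) and at most 0.384% in any earlier library. The sum over the 3 genes was 54.7 ± 4.87 TPM in the 34 h libraries (SD, n = 2) and 71.5 ± 0.777 TPM (72 h). These shares are given as a description, and no test was run on them.

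**Figure D3:**
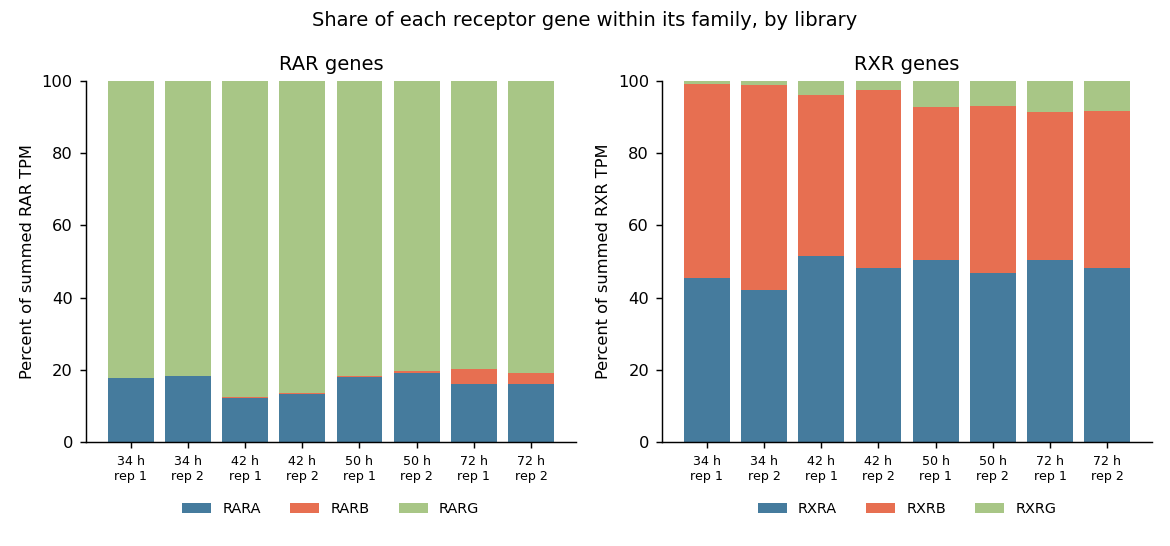
Percent of the summed TPM of the RAR genes (left) and the RXR genes (right) held by each gene (y axis, 0 to 100) in each of the 8 libraries (x axis). RARG takes about 80% to 88% of the RAR sum in every library, RARB becomes visible at 72 h, and the RXRG segment widens from about 1% at 34 h to over 8% at 72 h.

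Among the retinoid X receptors, which pair with RARs and with many other nuclear receptors, RXRG rose steeply from a low level and RXRA rose by 72 h. RXRG (chromosome 1, 165400917 to 165445355, minus strand), the family member with the narrowest expression, known from muscle and parts of the nervous system, was at 0.323 and 0.295 TPM (34 h) and 1.36 and 0.770 TPM (42 h). It reached 3.15 and 2.45 TPM (50 h) and 4.182 and 4.199 TPM (72 h), so that no 2 time points overlapped. RXRG rose by 1.53 ± 0.24 (SE) from 34 h to 50 h (limma adjusted p 0.00766), with 1.65 in replicate 1 and 1.41 in replicate 2, and by 1.99 ± 0.24 from 34 h to 72 h (limma adjusted p 0.000782). The mean TPM at 72 h was 13.55 times that at 34 h. The 50 h call was lost without replicate 2 at 34 h (limma adjusted p 0.0539) or replicate 1 at 50 h (0.0595), and the 72 h call held in all 17 alternatives that could be run. The step from 50 h to 72 h, 0.45 (95% interval -0.09 to 1.00), did not pass.

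RXRA (chromosome 9, 134317098 to 134440585, plus strand), the RXR that the embryo cannot do without, was at 15.8 and 12.4 TPM (34 h), 17.6 and 15.6 TPM (42 h), 21.7 and 16.6 TPM (50 h), and 24.8 TPM in both libraries at 72 h. The 72 h libraries were above all others, while those of 42 h overlapped both 34 h and 50 h. RXRA rose by 0.78 ± 0.17 (SE) from 34 h to 72 h (limma adjusted p 0.0130), by 0.62 within replicate 1 and 0.95 within replicate 2. That call was lost without replicate 2 at 34 h (limma adjusted p 0.0845) as well as with either 72 h library left out (0.0661 without replicate 1, 0.0652 without replicate 2).

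RXRB lies in the major histocompatibility region, and the table held 5 rows for it. Of these rows 1 matched chromosome 6 (33193588 to 33200688, minus strand), and the identifiers of the other 4 matched no gene of the GENCODE v29 annotation used for positions. The row on chromosome 6 held between 26.9% and 46.0% of the summed RXRB level. Of the other 4, the row with the highest mean level held between 25.2% and 52.3%. Single rows thus moved between replicates more than their sum did. The sum was 18.6 and 16.7 TPM (34 h), 15.2 and 15.9 TPM (42 h), 18.2 and 16.4 TPM (50 h), and 20.3 and 22.4 TPM (72 h). The 72 h libraries were the highest and the 42 h libraries the lowest. The sum had a replicate standard deviation of 0.0900 on the log2 scale, and no comparison passed. Its change at 72 h against 34 h was 0.26 (95% interval -0.04 to 0.55, limma adjusted p 0.187). RXRB shares 244 exon bases with SLC39A7, a zinc transporter gene on the other strand, which was at 93.1 to 112 TPM summed over its own rows. The SLC39A7 row that overlaps RXRB on chromosome 6 was listed at 0 in every library, so this level came from its other rows.

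**Figure D4:**
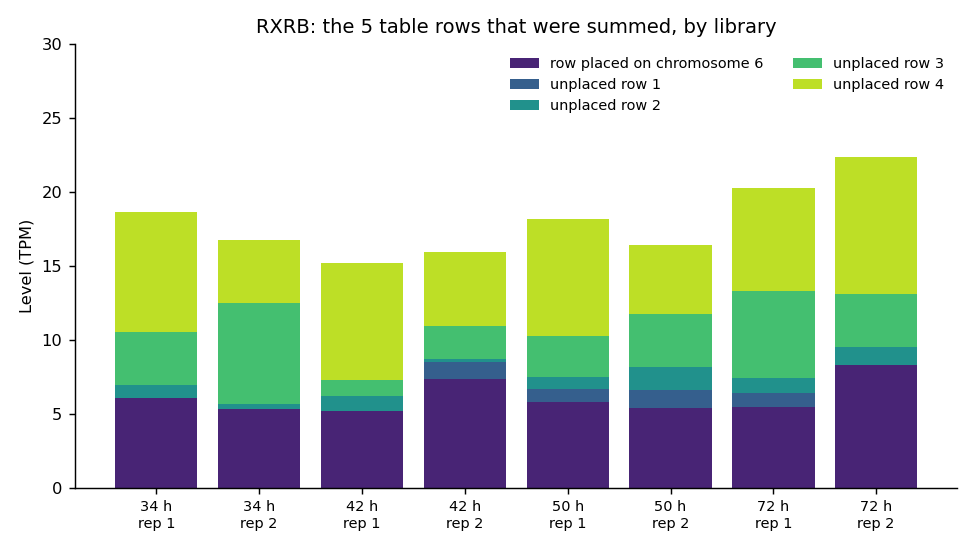
Level in TPM (y axis) of the 5 table rows of RXRB, stacked, in each of the 8 libraries (x axis). The row placed on chromosome 6 and the unplaced rows trade places between replicates, while the total stays between 15.2 and 22.4 TPM.

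Within the RXR sum, RXRB was ahead of RXRA at 34 h and behind it at 72 h. The ratio of RXRA to RXRB was 0.850 and 0.740 (34 h), 1.16 and 0.978 (42 h), 1.19 and 1.01 (50 h), and 1.22 and 1.11 (72 h). Every later library was above both 34 h libraries. RXRG went from 0.930% and 1.00% of the sum at 34 h to 8.496% and 8.17% (72 h). With the highest RXRB row standing for the gene, RXRA held 69.3% of the sum at 34 h in place of 43.8%, so the order of RXRA and RXRB rests on summing the rows. The RXRA share was then lower at 72 h than at 34 h, while with summed rows it was higher. The direction in which that share moved thus rests on the summing too. The summed level of the RXR genes was 34.8 and 29.4 TPM (34 h) and 49.2 and 51.4 TPM (72 h). The ratio of the RAR sum to the RXR sum was 2.27 and 2.165 (42 h), the highest of the course, and 1.46 and 1.38 (72 h), the lowest.

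NRIP1 (chromosome 21, 14961235 to 15065936, minus strand) rose up to 50 h, and its 72 h libraries lay below those of 50 h by a difference that did not pass the test. It was at 6.94 and 7.34 TPM (34 h), 9.89 and 11.45 TPM (42 h), 15.2 and 13.5 TPM (50 h), and 10.2 and 9.15 TPM (72 h). Only the 42 h and 72 h libraries overlapped, and the 50 h libraries were above all others. NRIP1 rose by 0.91 ± 0.15 (SE) from 34 h to 50 h (limma adjusted p 0.00971), with 1.03 in replicate 1 and 0.79 in replicate 2, a mean TPM 2.01 times that at 34 h. The call was lost without replicate 1 or replicate 2 at 34 h (limma adjusted p 0.0639 and 0.0549) and without replicate 1 at 50 h (0.0672). The difference from 50 h to 72 h was -0.52 (95% interval -0.86 to -0.18) with an unadjusted p of 0.00776 and a limma adjusted p of 0.0764, and was negative in both replicates.

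NCOR1 (chromosome 17, 16029157 to 16218185, minus strand), the scaffold of the corepressor complex that carries HDAC3, was the most abundant member in every library. It was at 113 and 66.2 TPM (34 h), 116 and 120 TPM (42 h), 116 and 95.5 TPM (50 h), and 96.8 and 83.5 TPM (72 h). The spread at 34 h was the widest of the 9 genes, and its replicate standard deviation of 0.2945 on the log2 scale exceeded that of 80.5% of tested genes. The change at 42 h was 0.05 within replicate 1 and 0.85 within replicate 2, and no comparison passed in the fit over all 8 libraries. Without replicate 1 at 34 h the F-test over the course called NCOR1. The interval at 72 h against 34 h was -0.45 to 0.57. The 3 NCOR1 pseudogenes in the table were listed at 0 in all 8 libraries. NCOR1 shares 321 exon bases (2.08% of its exons) with PIGL on the other strand, which was at 17.0 to 26.6 TPM.

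STRA6 (chromosome 15, 74179466 to 74212267, minus strand), the retinol transporter, more than doubled in mean TPM by 50 h. It was at 24.4 and 23.0 TPM (34 h), 37.5 and 37.3 TPM (42 h), 61.5 and 45.2 TPM (50 h), and 44.2 and 56.5 TPM (72 h). Every later library was above the 34 h libraries and the 50 h and 72 h libraries overlapped, with replicate 1 higher at 50 h and replicate 2 higher at 72 h. STRA6 rose by 1.12 ± 0.17 (SE) between 34 h and 50 h (adjusted p 0.00669 by limma) and by 1.05 ± 0.17 from 34 h to 72 h (limma adjusted p 0.00336), the latter with 0.83 in replicate 1 and 1.26 in replicate 2. The mean TPM was 2.25 and 2.125 times that at 34 h. The 50 h call was lost without replicate 2 at 34 h (limma adjusted p 0.05495), and the 72 h call held in all 18 alternatives. The change at 42 h was 0.64 (95% interval 0.25 to 1.02) with a limma adjusted p of 0.119. STRA6 shares 540 exon bases (7.02% of its exons) with CCDC33 on the other strand. CCDC33 was at 5.29 and 8.07 TPM (34 h) and 15.2 TPM in both libraries at 50 h, so its mean, like that of STRA6, was highest at 50 h. Its part in the STRA6 level was not tested.

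The order of the members changed over the course. At 34 h it ran NCOR1, RARG, STRA6, RXRB, RXRA, RARA, NRIP1, RXRG and RARB from high to low mean TPM, and no 2 neighbours overlapped. At 42 h RXRA overlapped RXRB, and both NRIP1 libraries were above both RARA libraries. At 50 h STRA6 overlapped RARG (61.5 and 45.2 TPM against 59.1 and 55.2 TPM), RXRA overlapped RXRB, and both NRIP1 libraries were above both RARA libraries. At 72 h both RARA libraries were again above those of NRIP1, STRA6 was below RARG in both libraries, and RXRA was above RXRB in both. RXRG remained the eighth and RARB the ninth at every time.

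For the 4 members called over the course, the genes with the most similar profile were taken as those with the highest Pearson r of log2(TPM + 1) over the 8 libraries, among 11540 tested genes with a mean of at least 5 TPM at their highest time point. For RARB they were SMOC1 (r = 0.997), VGLL3 (0.996) and ADO (0.995). SMOC1, a secreted calcium-binding matrix protein, went from a mean of 3.18 TPM (34 h) to 86.5 TPM (72 h), and VGLL3, a cofactor of TEAD factors, from 6.74 to 178 TPM. For RXRG they were CENPA, the centromeric histone (0.993), H2AFY2, a macroH2A histone (0.9925), and MED9, a Mediator subunit (0.990). For NRIP1 they were WDR55 (0.973), UNG, the uracil DNA glycosylase (0.963), and AQP3, a water and glycerol channel (0.957). For STRA6 they were KLC4 (0.981), VPS26B (0.980) and PGM1, phosphoglucomutase (0.976). Each r is the highest of many and all libraries share the time course, so these values describe likeness only.

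Around the 9 genes, 71 other genes of the pathway were listed by role, and 53 of them passed the filter. Of 13 other receptors that pair with RXR, 8 were tested, and at 72 h against 34 h 2 were raised and 1 lowered by limma (24.0% of all genes called), with a median log2 change of 0.05 against 0.06 over all tested genes. THRA, a thyroid hormone receptor, rose from 8.37 and 8.10 TPM to 19.6 and 21.5 TPM (1.22, limma adjusted p 0.000715), while THRB fell from 1.66 and 0.972 TPM to 0.0801 and 0.0814 TPM (-1.08, limma adjusted p 0.0302). THRB reached 1 TPM in 3 libraries, of 34 h and 42 h, so it passed the filter through the times at which it was high. PPARA rose by 0.93 (limma adjusted p 0.0486). The vitamin D receptor VDR was below 0.3 TPM in every library and was not tested.

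Orphan receptors that bind similar repeats had 5 of 6 genes tested, and 2 were raised and none lowered at 72 h, where 12.7% of all genes were raised. NR6A1, an orphan receptor of germ cells and early embryos, rose from 84.0 and 68.1 TPM (34 h) to 161 TPM in both 72 h libraries (1.08, limma adjusted p 0.000817). NR2F2 (COUP-TFII) rose from 0.109 and 0.165 TPM to 4.35 and 3.75 TPM (2.15, limma adjusted p 0.000714), and it passed the filter only through its later libraries.

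The other corepressor subunits and the coactivators were all tested, and most of them were not called. At 72 h against 34 h 2 of 10 corepressor genes were raised and 2 lowered, with a median of 0.09, and 2 of 11 coactivators were raised and 1 lowered, with a median of 0.11, where 12.7% of all genes were raised and 11.3% lowered. TBL1X, a subunit of the complex of NCOR1 and HDAC3, rose from 32.9 and 25.5 TPM to 59.2 and 57.8 TPM (0.99, limma adjusted p 0.00447). GPS2 of the same complex fell by 0.51 (limma adjusted p 0.00895). CTBP1 rose by 0.65 and CTBP2 fell by 0.34 (limma adjusted p 0.0117 and 0.0433), both of them corepressors that NRIP1 binds. Among coactivators NCOA3 rose by 0.95 and NCOA6 by 1.1997, while TRIM24 fell by 0.65 (limma adjusted p 0.00138, 0.00225 and 0.00752).

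The genes of retinoid synthesis, carriage and breakdown moved in both directions. Of 17 genes 12 were tested, and at 72 h against 34 h 2 were raised (CRABP2 and CYP26C1) and 4 lowered (RDH11, DHRS3, LRAT and FABP5), with a median of -0.25, where 12.7% of all genes were raised and 11.3% lowered. CYP26C1, another enzyme of retinoic acid breakdown, was at most 0.154 TPM up to 50 h and at 36.8 and 22.1 TPM in the 72 h libraries, and it passed the filter only through the latter. CRABP2, which carries retinoic acid to its receptors, had the highest level of the list at 72 h, 814 and 863 TPM, after 284 and 209 TPM in the 34 h libraries (1.78, limma adjusted p 0.000714). DHRS3, which turns retinal back to retinol, fell from 39.0 and 32.0 TPM to 5.735 and 6.81 TPM (-2.33, limma adjusted p 4.7e-05). The retinaldehyde dehydrogenase ALDH1A2 was at most 4.004 TPM, in replicate 2 at 50 h, and ALDH1A1 and ALDH1A3 were at most 0.363 and 1.81 TPM.

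Of 14 other genes known to respond to retinoic acid 7 were tested, and at 72 h against 34 h 5 were raised, among them RET and MEIS2, and 1 was lowered (PLAAT4), with a median of 1.55, where 12.7% of all genes were raised and 11.3% lowered. At 42 h 4 of them were already raised, RET and MEIS2 among them, where 1.78% of all genes were raised and none of the 9 receptors and coregulators was called. MEIS2, a HOX cofactor, went from 2.11 and 3.25 TPM (34 h) through 18.7 and 14.8 TPM (42 h) to 86.8 and 95.8 TPM (72 h). HOXB1 and CDX1 were listed at 0 in both 34 h libraries, and MEIS1 was below 0.05 TPM there, so they could pass the filter only by rising, and the counts and the median of this list are no support for a rise. HOXA4, HOXB4 and HOXD4 were listed at 0 in all 8 libraries.

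**Figure D5:**
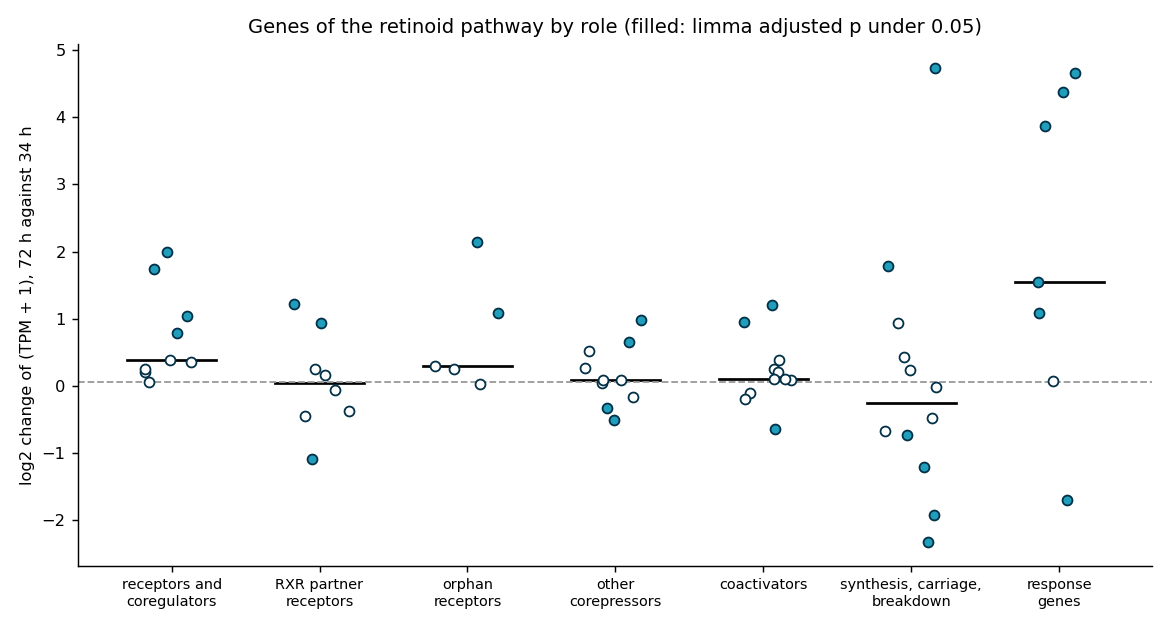
Change from 34 h to 72 h on the log2(TPM + 1) scale (y axis) of each tested gene, in columns for the 9 members and the 6 other lists of the pathway (x axis). Filled points have a limma adjusted p under 0.05, short bars are list medians and the dashed line is the median of all tested genes. The 4 filled points of the 9 receptors and coregulators lie above 0, where 12.7% of all tested genes were raised and 11.3% lowered.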

How the data were processed

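Poly(A) RNA of the ESI017 line was sequenced as paired 150-base reads per the labels' protocols, in 8 libraries, 2 at each of 4 time points. The values are TPM as deposited by the authors in 1 table of 37951 rows. Salmon 1.9.0 and GRCh38 are named per the submitters' processing notes. The annotation, filters and strand setting are not given in the sources used here. TPM keeps no sequencing depth, so counting error is unknown and no count model was used. TPM sums to a fixed total, so a rise in some genes lowers the share of others.

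Rows were summed by symbol to 35940 symbols (1034 had more than 1 row). Genes reaching 1 TPM in 2 or more libraries (14908) were tested on log2(TPM + 1) with limma 3.58.1 in R 4.3.3, 1 mean per time point over all 8 libraries, variance trend, two-sided tests and Benjamini-Hochberg adjustment over all genes, called under 0.05. The fold changes on this scale understate changes of low genes. The fit leaves 4 residual degrees of freedom. Comparisons with 34 h share its libraries and are not independent. The procedure was tested on simulated data. Alternatives were a pseudocount of 0.1, no filter, a mean of at least 5 TPM, TMM or quantile scaling, leaving out mitochondrial genes, no trend, rows apart, compared time points alone, a replicate block and leaving out each library.

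The replicate number is also the labels' batch, and the series text describes an independent biological replicate, so numbers pair libraries by label. Replicate differences correlated across genes with r from -0.104 to 0.195 between pairs of time points, and the 2 batches each hold 1 library per time point.

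All members, genes of the pathway and marker lists, and for members passing the F-test the 3 genes most like them could be named. The members and lists were chosen with earlier results of these data known. Promoter windows came from RefSeq (GRCh38.p14) and gene positions from GENCODE v29 on GRCh38, counted from 1. Protein sequences were not used here. Some genes of the lists are not reported here.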

Additional observations from a re-analysis of the deposited data

How the results depend on the processing

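No called change of the 9 genes changed sign under any alternative that was run. TMM scaling, no variance trend, the table's rows taken apart and the compared time points fitted alone left the counts of called members in each pair of time points as they were. From 50 h to 72 h the count went from 1 to 0 with a pseudocount of 0.1 and with a mean of at least 5 TPM, a filter that drops RARB and RXRG. At 42 h it went from 0 to 1 (RARG) with that filter, with quantile scaling and with the replicate block. The block also brought RARG past the threshold at 72 h (adjusted p 0.0397 by limma) and the F-test count from 4 to 6, and changed no other call of a member. Leaving out mitochondrial genes likewise called RARG at 72 h (0.0472) and 6 members by the F-test (17.4% of all genes), and the filter of 5 TPM called RARG at 72 h (0.0486). Leaving out 1 library at a time gave 0 to 0 called members at 42 h, 0 to 3 at 50 h, 2 to 4 at 72 h, 0 to 0 from 42 h to 50 h, 0 to 1 from 50 h to 72 h and 2 to 5 over the course. Without replicate 2 at 34 h no member was called at 50 h and 2 over the course. Without replicate 1 at 50 h 1 was called at 50 h (STRA6) and 0 from 50 h to 72 h, and without replicate 2 at 50 h also 0 from 50 h to 72 h. Without either 72 h library 2 were called at 72 h and 0 from 50 h to 72 h, as RARB then missed the filter and was not tested, and RXRA lost its call at 72 h. Fewer libraries leave fewer degrees of freedom, and calls over all genes also fell, at 50 h from 933 to 412 without replicate 2 at 34 h and to 481 without replicate 1 at 50 h, at 72 h from 3578 to 1840 and 1960 without replicate 1 and 2 at 72 h, and over the course from 2587 to 1555 without replicate 2 at 34 h. No other cause was tested. With the highest RXRB row alone, RXRA held 69.28%, 69.17%, 68.13% and 66.89% of the RXR sum at 34, 42, 50 and 72 h. Over all genes, the counts called at 50 h and from 50 h to 72 h were 933 and 1093 in the joint fit, and 545 and 661 with the compared time points fitted alone.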
